A study of Mus musculus with 16 samples.

Results

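The nuclear genes for respiratory complexes II to V and cytochrome c were followed across 16 ribosome profiling and total RNA libraries of mouse embryonic stem cells that lack, carry 1 copy of, or keep both copies of Nat1. Members were the genes Sdha, Sdhb, Sdhc, Sdhd, Cyc1 and Cycs, and all gene names that start with Uqcr, Atp5, Cox4i, Cox5, Cox6, Cox7 or Cox8, with a mean of at least 10 normalised reads over the 8 footprint libraries and over the 8 total RNA libraries. Of 21977 gene names in the table, 49 matched these symbols and 46 met the minimum, which 12933 genes met in all. The names left out were Cox6a2, Cox8b and Cox8c. Just inside the minimum lay Cox7b2, with a mean of 23.4 normalised reads for footprints and 10.7 for total RNA, and just outside it Cox8c, with 7.90 and 2.48. By complex, 4 members belonged to complex II, 9 to complex III, 15 to complex IV and 17 to complex V, and 1 was cytochrome c itself. Atp5s and Atp5sl carry the prefix of complex V but are not subunits of ATP synthase.

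The respiratory chain passes electrons from NADH and succinate to oxygen and pumps protons across the inner mitochondrial membrane, and ATP synthase, complex V, uses the returning protons to make ATP. Complex II (succinate dehydrogenase) is also an enzyme of the citric acid cycle, complex III hands electrons to cytochrome c, and complex IV (cytochrome c oxidase) passes them to oxygen. Complexes III, IV and V join catalytic or proton-conducting subunits, some of them encoded in mitochondrial DNA, with many small nuclear-encoded subunits called supernumerary or accessory, while complex II is wholly nuclear-encoded. Embryonic stem cells are known to draw strongly on glycolysis while their mitochondria respire.

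The Nat1-/- cultures were clones B12, B2 and C3, the Nat1+/- cultures clones A7, B4 and C1, and the WT cultures WTex1 and WTex2, as replicates 1, 2 and 3 or 1 and 2. All were kept with LIF on gelatin and belong to the RF8 embryonic stem cell line. The targeted cultures carry the names of separate clones and the WT cultures are of a single line, so clonal differences enter on the targeted side only. Each culture gave 1 library of ribosome-protected fragments (RPF, or footprints, the mRNA pieces held by ribosomes) and 1 of total RNA. Nat1 is the former symbol of Eif4g2, whose protein (p97, DAP5) resembles the initiation scaffold eIF4G but lacks its eIF4E-binding part. As a check of the labels, Eif4g2 footprints were 1089, 1114 and 922 normalised reads in Nat1-/- cultures, 10261, 7608 and 7275 in Nat1+/- cultures and 17666 and 13862 in WT cultures. Eif4g2 total RNA was 12249, 8795 and 5085 normalised reads in Nat1-/- cultures, 15335, 12092 and 10674 in Nat1+/- cultures and 47932 and 26984 in WT cultures.

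Whole reads recovered per library, in mega-reads (M), ran between 17.5 M and 23.8 M in RPF and between 13.2 M and 42.6 M in total RNA. The total RNA libraries of B12, WTex1 and WTex2 were the deep ones, with 42.5, 42.6 and 33.6 M reads against 13.2 to 16.4 M in the other 5. The stem cell markers on the list (5 of 5 detected in every library) summed to 105390 to 122440 normalised footprint reads in Nat1-/- cultures, 72715 to 78788 in Nat1+/- cultures and 62147 to 80427 in WT cultures. The 11 fibroblast markers on the list summed to 493 to 926 in Nat1-/-, 1085 to 2615 in Nat1+/- and 4361 to 11598 in WT cultures for footprints, and to 419 to 732, 763 to 1726 and 2341 to 6203 for total RNA. Col1a1 had the highest footprint values of the list in WT, 22.7, 45.3 and 38.7 normalised reads in Nat1-/- cultures, 77, 707 and 93.4 in Nat1+/- cultures and 1911 and 5922 in WT cultures, followed there by Acta2. Thy1 footprints were instead highest in Nat1+/- cultures, 125, 46.2 and 96.8 normalised reads in Nat1-/- cultures, 259, 328 and 219 in Nat1+/- cultures and 162 and 121 in WT cultures, and so were those of Pdgfrb, 37.8, 47.1 and 108 normalised reads in Nat1-/- cultures, 228, 219 and 188 in Nat1+/- cultures and 113 and 165 in WT cultures. Of 9 markers tested in footprints, 6 fell and 0 rose in Nat1-/- against Nat1+/- cultures, and for Nat1+/- against WT 5 fell, 0 rose and 3 had a positive log2 fold change. Postn, Lum and Dcn were at 0 in at least 1 Nat1-/- and 1 Nat1+/- library of each assay, and in WT this held for Lum alone. In bulk samples such as these, fewer cells of a type and less RNA per cell cannot be told apart. The part of other cells, of depth and of differences between clones in the results was not tested.

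Of the 46 members, 37 matched a promoter window in the RefSeq table (GRCm38.p6), from 250 bases before to 50 after the start. Promoters of respiratory chain genes are textbook targets of the factors NRF1 and GABP. The motif GCATGCGC, the centre of the NRF1 recognition sequence, was found on either strand in 8 of 37 member windows (21.6%) and in 3.05% of the 27025 genes of the table. The GABP motif CCGGAAG was found in 12 of 37 (32.4%) and in 9.93%. The genes of the table, unlike the members, were not limited to those that met the read minimum, so these motif shares have unlike bases. Windows with the NRF1 motif are shown for 1 gene each of cytochrome c and of complexes III, IV and V, in lower case with that motif in capitals, because their genes sit in different complexes and share these 8 letters. They lie at chr6:50566520-50566819 (Cycs), chr10:80406772-80407071 (Uqcr11), chr5:115348909-115349208 (Cox6a1) and chr5:108434350-108434649 (Atp5k) of GRCm38.p6, all on the minus strand, and are written 5′ to 3′ along the gene. In Cox6a1 and Atp5k the capitals cover a match on each strand, and these overlap.
Cycs: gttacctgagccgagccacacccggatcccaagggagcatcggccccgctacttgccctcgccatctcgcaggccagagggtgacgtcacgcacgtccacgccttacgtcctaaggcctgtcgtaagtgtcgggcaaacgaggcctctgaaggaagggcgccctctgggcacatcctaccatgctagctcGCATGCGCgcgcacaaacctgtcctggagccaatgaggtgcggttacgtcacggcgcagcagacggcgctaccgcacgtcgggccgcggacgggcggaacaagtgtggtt
Uqcr11: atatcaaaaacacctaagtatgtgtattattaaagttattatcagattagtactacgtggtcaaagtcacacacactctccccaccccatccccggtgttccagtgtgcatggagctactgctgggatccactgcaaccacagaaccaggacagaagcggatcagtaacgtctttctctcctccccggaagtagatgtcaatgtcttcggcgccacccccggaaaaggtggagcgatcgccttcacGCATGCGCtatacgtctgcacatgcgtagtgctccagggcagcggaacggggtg
Cox6a1: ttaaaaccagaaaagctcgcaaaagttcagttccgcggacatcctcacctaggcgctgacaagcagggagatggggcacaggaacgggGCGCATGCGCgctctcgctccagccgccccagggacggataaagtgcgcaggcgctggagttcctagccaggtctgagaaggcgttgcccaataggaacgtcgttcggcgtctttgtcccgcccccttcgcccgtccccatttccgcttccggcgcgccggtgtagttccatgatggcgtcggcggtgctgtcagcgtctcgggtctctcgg
Atp5k: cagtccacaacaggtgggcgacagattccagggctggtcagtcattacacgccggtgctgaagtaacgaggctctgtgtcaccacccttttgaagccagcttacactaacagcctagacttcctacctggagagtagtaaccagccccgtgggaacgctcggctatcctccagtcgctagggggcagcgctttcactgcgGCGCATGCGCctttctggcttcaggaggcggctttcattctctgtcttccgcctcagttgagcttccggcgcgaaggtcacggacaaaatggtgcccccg
Of the 8 members with the NRF1 motif, 3 (Sdhb, Uqcr11 and Atp5k) rose in footprints of Nat1-/- over Nat1+/- cultures, and of the 12 with the GABP motif, 8 did, beside 16 of all 46 members (34.8%) and 17.6% of all genes. In total RNA 1 of 8 and 3 of 12 rose, beside 3 of 46 members and 19.8% of all genes. The 46 include members without a promoter window, which were not scanned for either motif, so these shares are not like for like. A match is a description of these letters and shows no binding.

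The contrast of Nat1-/- with Nat1+/- addresses loss of the second Nat1 copy among targeted clones. Footprints of 16 members rose and those of 1 member, Sdhc, fell in Nat1-/- cultures (limma, Benjamini-Hochberg adjusted p under 0.05 over 13110 genes). The rises were 34.8% of the members, where 17.6% of all genes tested rose and 18.6% fell. The log2 fold change was positive for 41 of 46 members, with a median of 0.38, against a median of 0.02 over all genes. Nat1-/- values lay wholly above Nat1+/- values for 21 members and wholly below for 2, where 24.6% and 23.5% of all genes did so. With 1 culture left out, the members that rose numbered 10 without B12 (15.4% of all genes rose), 22 without C3 (20.1%), 8 without A7 (12.7%), 10 without C1 (13.4%), 6 without B4 (12.2%) and 3 without B2 (9.05%). Without B2, the 3 rises are a smaller share of the members than the share of all genes that rose. Cox6c, Atp5g3 and Cox7c kept their call in each of these fits. Scaling all libraries to equal sums left 9 rises and 1 fall, beside 13.4% of all genes that rose.

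**Figure D1:**
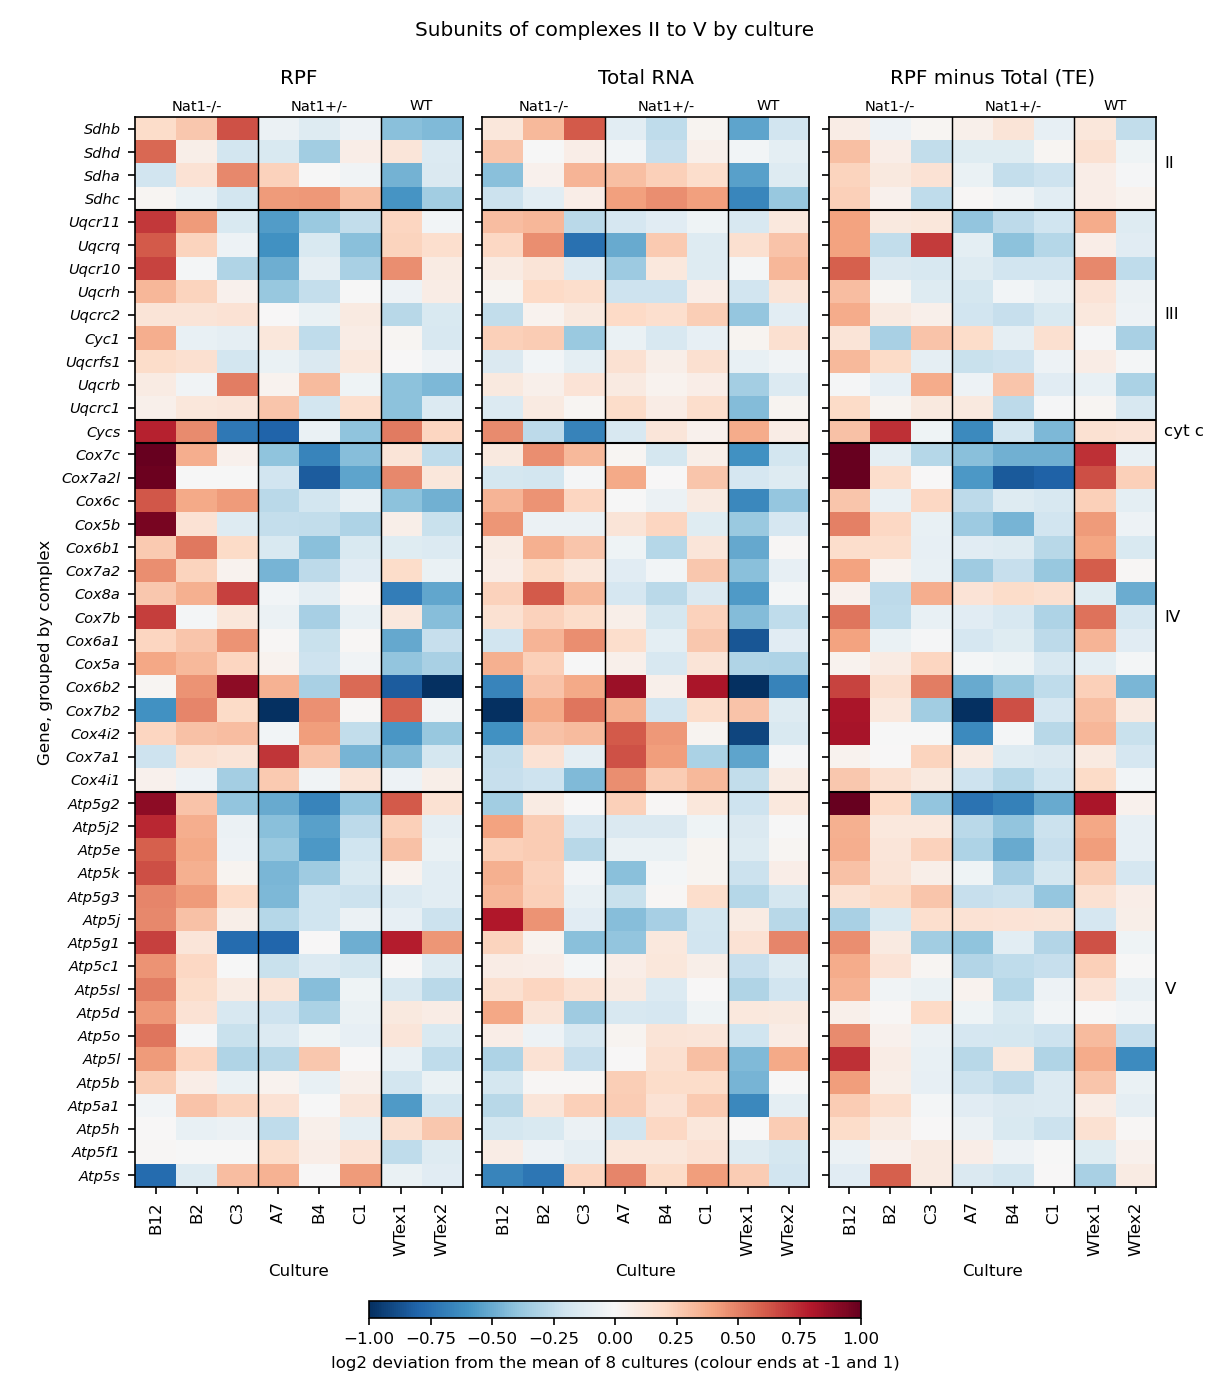
Log2 deviation of each member (rows, grouped by complex and ordered by the RPF change) from its mean over the 8 cultures (columns), for RPF, total RNA and their log2 difference (TE). In RPF, the members above their own mean number 41 (B12), 35 (B2) and 24 (C3) of 46 for Nat1-/-, against 10 to 16 in the Nat1+/- cultures.

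In complex II, the catalytic subunit Sdhb rose and the membrane anchor Sdhc fell, while Sdha and Sdhd did not pass the test. Footprints of Sdhb, the iron-sulfur subunit, were 6203, 6594 and 8478 normalised reads in Nat1-/- cultures, 5247, 5006 and 5274 in Nat1+/- cultures and 4086 and 4028 in WT cultures. The genotypes did not overlap and ordered as Nat1-/-, Nat1+/- and WT from high to low, with 0.44 ± 0.14 for Nat1-/- over Nat1+/- (log2 fold change ± SE, n = 3 and 3; limma adjusted p = 0.034). Sdhc, which anchors the enzyme in the membrane and helps bind ubiquinone and haem, had 4293, 4040.1 and 3711 normalised reads in Nat1-/- cultures, 5672, 5695 and 5216 in Nat1+/- cultures and 2811 and 3327 in WT cultures. Here the Nat1+/- cultures stood above both other genotypes, and the change was -0.46 ± 0.13 (adjusted p = 0.0178). The Sdhb call was lost without any one of B2, C3, A7, B4 and C1, and that of Sdhc without B2, A7 or B4. Sdha, the flavoprotein that oxidises succinate, had 7992, 10089.9 and 12752 normalised reads in Nat1-/- cultures, 10709, 9089 and 8896 in Nat1+/- cultures and 6562 and 8256 in WT cultures, with overlap between Nat1-/- and Nat1+/- (0.08 ± 0.19, adjusted p = 0.753). Sdhd, the other anchor, had 2818, 1973 and 1664 normalised reads in Nat1-/- cultures, 1698, 1482 and 1979.5 in Nat1+/- cultures and 2056 and 1716 in WT cultures and overlapped as well (0.30 ± 0.20, adjusted p = 0.27).

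In total RNA, Sdhb was again highest in Nat1-/- cultures and Sdhc in Nat1+/- cultures. Sdhb total RNA was 4063, 4718 and 5764 normalised reads in Nat1-/- cultures, 3499, 3158 and 3838 in Nat1+/- cultures and 2606 and 3294 in WT cultures, a change of 0.46 ± 0.16 in Nat1-/- over Nat1+/- (adjusted p = 0.0408), while Nat1+/- and WT overlapped. Sdhc total RNA was 2417, 2603 and 2940.0 normalised reads in Nat1-/- cultures, 3726, 3867 and 3719 in Nat1+/- cultures and 1778 and 2149 in WT cultures, a change of -0.51 ± 0.13 (adjusted p = 0.0099). The total RNA call of Sdhc held without each culture in turn, whereas that of Sdhb was lost without B2, C3, A7, B4 or C1. Sdha total RNA was 4799, 6614 and 8100.0 normalised reads in Nat1-/- cultures, 7870.1, 7533 and 7217 in Nat1+/- cultures and 4393 and 5848 in WT cultures and that of Sdhd 2848, 2338 and 2458 normalised reads in Nat1-/- cultures, 2299, 1999.5 and 2432 in Nat1+/- cultures and 2299 and 2189.8 in WT cultures, with adjusted p = 0.321 and 0.279.

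In complex III, 3 of 5 small supernumerary subunits rose in footprints and 0 of 4 core proteins did, beside 17.6% of all genes. The risers were Uqcr11 (0.72 ± 0.21, adjusted p = 0.0231), Uqcrq (0.65 ± 0.18, adjusted p = 0.0211) and Uqcrh, the acidic hinge protein beside cytochrome c1 (0.41 ± 0.14, adjusted p = 0.0453). Uqcr11 footprints were 2498, 2055 and 1374 normalised reads in Nat1-/- cultures, 1038, 1179 and 1289 in Nat1+/- cultures and 1767 and 1501 in WT cultures, so that all Nat1-/- cultures exceeded all Nat1+/- cultures while WT lay within the Nat1-/- range. The electron-carrying subunits Cyc1 (cytochrome c1) and Uqcrfs1 (the Rieske iron-sulfur protein) had log2 fold changes of 0.09 and 0.09, and the core proteins Uqcrc1 and Uqcrc2 0.01 and 0.12. Uqcrb and Uqcr10 were at 0.08 and 0.42 and did not pass the test. For total RNA, 0 of 9 members of complex III passed it, where 19.8% of all genes rose and 20.2% fell, and their log2 fold changes ran between -0.24 and 0.25.

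Cycs, the mobile carrier cytochrome c, spread widely between cultures. Its footprints were 1027, 837 and 368 normalised reads in Nat1-/- cultures, 346, 577 and 457 in Nat1+/- cultures and 866 and 700.0 in WT cultures, and its log2 fold change of 0.60 ± 0.34 did not pass the test (adjusted p = 0.202). C3 lay within the Nat1+/- range, and B12 and WTex1 were the highest. Total RNA of Cycs was 1119, 673 and 508 normalised reads in Nat1-/- cultures, 722, 877 and 832 in Nat1+/- cultures and 1044 and 851 in WT cultures (-0.15 ± 0.25, adjusted p = 0.659). RefSeq names 3 pseudogenes of Cycs, and the sources used here do not give how reads with several matches were counted. The same holds for Atp5c1, Atp5f1, Atp5k, Atp5l, Cox5b, Cox7c and Uqcrh, the other 7 members with a named pseudogene. Only pseudogenes named after the symbol of a member were searched, and copies under other names were not sought for any member.

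Complex IV held the largest number of rises, 7 of 15 members (46.7%), beside 17.6% of all genes. Footprints of Cox7c, a small membrane subunit, were 5528, 3081 and 2457 normalised reads in Nat1-/- cultures, 1811, 1515 and 1776 in Nat1+/- cultures and 2607 and 2006 in WT cultures. B12 was far above all other cultures, B2 and C3 were nonetheless above all Nat1+/- cultures, and the change was 1.03 ± 0.26 (adjusted p = 0.0133). Cox6c, another small membrane subunit, had 6870.1, 5823 and 6016 normalised reads in Nat1-/- cultures, 3708, 3945 and 4248 in Nat1+/- cultures and 3368 and 3204 in WT cultures, with all 3 genotypes apart and the Nat1-/- cultures highest (0.65 ± 0.12, adjusted p = 0.00366). Cox6b1, which faces the intermembrane space where cytochrome c docks, had 10018, 12047 and 9563 normalised reads in Nat1-/- cultures, 7512, 6277 and 7539 in Nat1+/- cultures and 7683 and 7617 in WT cultures. Its Nat1-/- cultures stood above both other genotypes (0.57 ± 0.14, adjusted p = 0.0122). The remaining risers were Cox7a2 (0.52), Cox8a (0.47), Cox5a (0.38) and Cox7a2l (0.84), with adjusted p between 0.0266 and 0.0479.

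**Figure D2:**
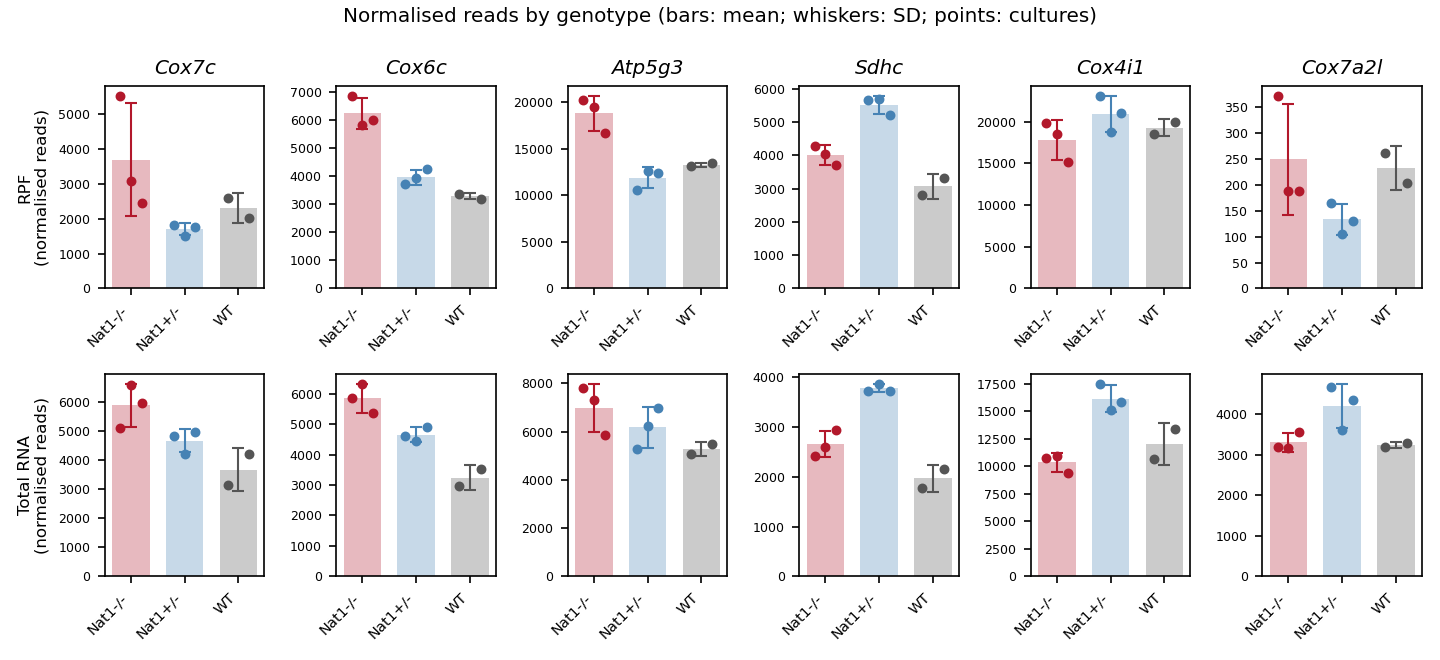
Normalised reads of 6 members in RPF (top) and total RNA (bottom) by genotype, with the mean as a bar from 0, the SD as whiskers and each culture as a point (3 Nat1-/-, 3 Nat1+/-, 2 WT). Cox7c, Cox6c and Atp5g3 footprints are highest in Nat1-/- cultures, Sdhc is highest in Nat1+/- cultures in both assays, and Cox4i1 total RNA is highest in Nat1+/- cultures.

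Several complex IV subunits exist as paired isoforms, and the ubiquitous and the tissue-restricted forms were set side by side. Cox4i1, the ubiquitous form of the largest nuclear subunit, had 19773, 18514 and 15173 normalised reads in Nat1-/- cultures, 23059, 18723 and 21017 in Nat1+/- cultures and 18523 and 19968 in WT cultures for footprints, with overlap of the genotypes (-0.24 ± 0.15, adjusted p = 0.256). Its total RNA was 10780.1, 10944 and 9348 normalised reads in Nat1-/- cultures, 17510.1, 15068 and 15863 in Nat1+/- cultures and 10698 and 13409 in WT cultures. All 3 Nat1-/- cultures were below all 3 Nat1+/- cultures, a fall of 0.64 ± 0.13 on the log2 scale (SE; adjusted p = 0.00446) that held without each culture in turn. Cox4i2, the form induced by low oxygen, had few footprints, 132, 139 and 141 normalised reads in Nat1-/- cultures, 112, 152 and 95.5 in Nat1+/- cultures and 75.4 and 87.1 in WT cultures, and its total RNA was 37.3, 70.6 and 71.6 normalised reads in Nat1-/- cultures, 88.2, 77.7 and 58.5 in Nat1+/- cultures and 29.9 and 51.4 in WT cultures. The genotypes overlapped between Nat1-/- and Nat1+/- in both assays (adjusted p = 0.453 and 0.438).

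Cox6b2, known as the testis form of Cox6b1, had 655, 884 and 1201 normalised reads in Nat1-/- cultures, 825, 516 and 957 in Nat1+/- cultures and 362 and 297 in WT cultures for footprints and 284, 548 and 583 normalised reads in Nat1-/- cultures, 813, 465 and 792 in Nat1+/- cultures and 213 and 282 in WT cultures for total RNA. Both targeted genotypes stood above WT, and they overlapped with each other (footprints 0.26 ± 0.27, adjusted p = 0.478). Cox6b1 total RNA was 2755, 3324 and 3149 normalised reads in Nat1-/- cultures, 2524, 2136 and 2840 in Nat1+/- cultures and 1824 and 2629.6 in WT cultures (0.30 ± 0.17, adjusted p = 0.17). Cox6a1, whose muscle form Cox6a2 fell under the minimum, had 8743, 9133 and 10336 normalised reads in Nat1-/- cultures, 7598, 6481 and 7618 in Nat1+/- cultures and 5285 and 6452 in WT cultures for footprints. Its Nat1-/- cultures exceeded the others without passing the test (0.38 ± 0.14, adjusted p = 0.0582). Cox6a1 total RNA was 2618, 3799 and 4142 normalised reads in Nat1-/- cultures, 3383, 2796 and 3618 in Nat1+/- cultures and 1653 and 2772 in WT cultures and overlapped (adjusted p = 0.776).

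Among the 3 Cox7a genes, Cox7a2, the widely expressed form, had 7139, 6045 and 5295 normalised reads in Nat1-/- cultures, 3737, 4321 and 4769 in Nat1+/- cultures and 5866 and 4924 in WT cultures for footprints and 3300.1, 3607 and 3404 normalised reads in Nat1-/- cultures, 2915, 3098 and 3792 in Nat1+/- cultures and 2355 and 2979 in WT cultures for total RNA. The footprints rose (0.52 ± 0.16) and total RNA overlapped (0.08 ± 0.14, adjusted p = 0.678). Cox7a1, the heart and muscle form, had 260.2, 333 and 328 normalised reads in Nat1-/- cultures, 492, 367 and 217 in Nat1+/- cultures and 221 and 265 in WT cultures for footprints and 139, 181 and 154 normalised reads in Nat1-/- cultures, 255, 219 and 131 in Nat1+/- cultures and 113 and 163 in WT cultures for total RNA, and overlapped in both. Cox7a2l, a factor that joins complexes III and IV in supercomplexes, had 372, 187 and 188 normalised reads in Nat1-/- cultures, 165, 105 and 130.2 in Nat1+/- cultures and 263 and 203 in WT cultures for footprints and 3178, 3167 and 3563 normalised reads in Nat1-/- cultures, 4665, 3596 and 4349.9 in Nat1+/- cultures and 3186 and 3285 in WT cultures for total RNA. Its footprints were higher in Nat1-/- than in Nat1+/- cultures (0.84 ± 0.29, adjusted p = 0.0479) while its total RNA was lower without passing the test (-0.34 ± 0.13, adjusted p = 0.0568). The footprint call was lost without B12, B2, B4 or C1.

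Cox8a, the smallest complex IV subunit, had 8293, 8807 and 11089.8 normalised reads in Nat1-/- cultures, 6763, 6472 and 6948 in Nat1+/- cultures and 4275 and 4814 in WT cultures for footprints. Both assays set all 3 Nat1-/- cultures above all 3 Nat1+/- cultures, with 0.47 ± 0.14 for footprints (adjusted p = 0.0273) and 0.58 ± 0.16 for total RNA (adjusted p = 0.0167). Cox8a total RNA was 4209, 5507 and 4508 normalised reads in Nat1-/- cultures, 3204, 2978 and 3247 in Nat1+/- cultures and 2428 and 3552 in WT cultures. It was the sole member of complex IV whose total RNA rose, and Cox4i1 the sole member whose total RNA fell. The footprint call was lost without B2, A7, B4 or C1 and the total RNA call without B2 or B4. Cox6c and Cox7c total RNA came to 5861, 6328 and 5376 normalised reads in Nat1-/- cultures, 4604, 4451 and 4911 in Nat1+/- cultures and 2956 and 3533 in WT cultures and 5106, 6583 and 5977 normalised reads in Nat1-/- cultures, 4831, 4215 and 4955 in Nat1+/- cultures and 3140.3 and 4202 in WT cultures. Both lay wholly above Nat1+/- without passing the test (adjusted p = 0.054 and 0.103).

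In complex V, 5 of 17 members (29.4%) rose in footprints and 0 fell, beside 17.6% and 18.6% of all genes. The risers came from the rotor ring, the stalks and the membrane part. Atp5g3, 1 of 3 genes for the c subunit of the proton-driven ring, had 20251, 19436 and 16627 normalised reads in Nat1-/- cultures, 10567, 12579 and 12421 in Nat1+/- cultures and 13130.2 and 13402 in WT cultures. The Nat1-/- cultures stood above both other genotypes (0.66 ± 0.14, adjusted p = 0.00592). Atp5k, subunit e of the membrane part that helps the enzyme form dimers, had 4516, 3699.9 and 2949 normalised reads in Nat1-/- cultures, 2102, 2257 and 2595 in Nat1+/- cultures and 2958 and 2689 in WT cultures (0.67 ± 0.17, adjusted p = 0.013). All Nat1-/- cultures exceeded all Nat1+/- cultures, though WTex1 exceeded C3. Atp5j2, subunit f of the membrane part, had 12097, 9214 and 6870.3 normalised reads in Nat1-/- cultures, 5365, 4925 and 5976 in Nat1+/- cultures and 8455 and 6733 in WT cultures, with WTex1 between B2 and C3 (0.76 ± 0.20, adjusted p = 0.0166). Atp5e, the epsilon subunit of the central stalk, rose by 0.69 ± 0.19 (adjusted p = 0.0179).

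Atp5j, a peripheral stalk subunit, was the fifth riser of complex V and the sole one whose total RNA rose too. Its footprints were 10980.4, 9686 and 8193 normalised reads in Nat1-/- cultures, 6474, 6883 and 7579 in Nat1+/- cultures and 7458 and 6805 in WT cultures (0.46 ± 0.14, adjusted p = 0.0331). Its total RNA was 3106, 2423 and 1646 normalised reads in Nat1-/- cultures, 1321, 1412 and 1564 in Nat1+/- cultures and 1888 and 1471 in WT cultures, with C3 close above the Nat1+/- cultures (0.69 ± 0.21, adjusted p = 0.026). The total RNA call was lost without B12, B2, A7 or B4, and the footprint call without B12, B2, A7, B4 or C1. In the annotation Atp5j overlaps Gabpa, and use of strand in counting is not stated. For the same reason Atp5a1 (with Haus1), Atp5d (Cbarp), Cox4i2 (Bcl2l1), Cox7a2 (Tmem30a), Uqcrc2 (Pdzd9) and Uqcrq (Gdf9) carry that uncertainty.

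The other c subunit genes did not pass the test, and their C3 values lay within the Nat1+/- range. Atp5g1 footprints were 3812, 2585 and 1391 normalised reads in Nat1-/- cultures, 1371, 2375 and 1694 in Nat1+/- cultures and 4090.1 and 3227 in WT cultures, with C3 inside the Nat1+/- range and WT among the highest (0.44 ± 0.33, adjusted p = 0.325). Atp5g2 footprints were 2131, 1396 and 870.3 normalised reads in Nat1-/- cultures, 808, 723 and 871 in Nat1+/- cultures and 1746 and 1267 in WT cultures, and here too C3 stood at the Nat1+/- level (0.78 ± 0.28, adjusted p = 0.0524). Total RNA of Atp5g1 was 1873, 1645 and 1202 normalised reads in Nat1-/- cultures, 1225, 1729 and 1406 in Nat1+/- cultures and 1780.3 and 2258 in WT cultures, that of Atp5g2 612, 826 and 778 normalised reads in Nat1-/- cultures, 919, 785 and 841 in Nat1+/- cultures and 674 and 837 in WT cultures and that of Atp5g3 7796, 7295 and 5868 normalised reads in Nat1-/- cultures, 5295, 6249 and 6966 in Nat1+/- cultures and 5062 and 5477 in WT cultures. None of the 3 passed the test in total RNA, with log2 fold changes of 0.11, -0.21 and 0.18.

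The alpha, beta and gamma subunits of ATP synthase were not among the risers. Atp5a1 and Atp5b, the alpha and beta subunits that make ATP, had footprint changes of 0.07 ± 0.17 and 0.08 ± 0.16 (adjusted p = 0.764 and 0.729). Atp5c1, the gamma shaft, had 10185, 8620.1 and 7469.5 normalised reads in Nat1-/- cultures, 6409, 6796 and 6630.3 in Nat1+/- cultures and 7513 and 6847 in WT cultures, with all Nat1-/- cultures above all Nat1+/- cultures and an adjusted p of 0.0519 (0.39 ± 0.14). Total RNA of Atp5c1 was 6509, 6482 and 6095 normalised reads in Nat1-/- cultures, 6490.4, 6699.6 and 6444 in Nat1+/- cultures and 5262 and 5673 in WT cultures (-0.04 ± 0.11). The stalk subunits Atp5f1, Atp5h and Atp5o were at -0.12, 0.06 and 0.19 for footprints, Atp5d at 0.34 and Atp5l at 0.11. Atp5s and Atp5sl were at -0.46 and 0.37. None of these passed the test. Total RNA of Atp5k was 2113, 1936 and 1624 normalised reads in Nat1-/- cultures, 1238, 1627 and 1678 in Nat1+/- cultures and 1424 and 1727 in WT cultures and that of Atp5j2 3229, 2921 and 2177 normalised reads in Nat1-/- cultures, 2206, 2209.7 and 2369 in Nat1+/- cultures and 2205 and 2431 in WT cultures, with adjusted p = 0.137 and 0.172.

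**Figure D3:**
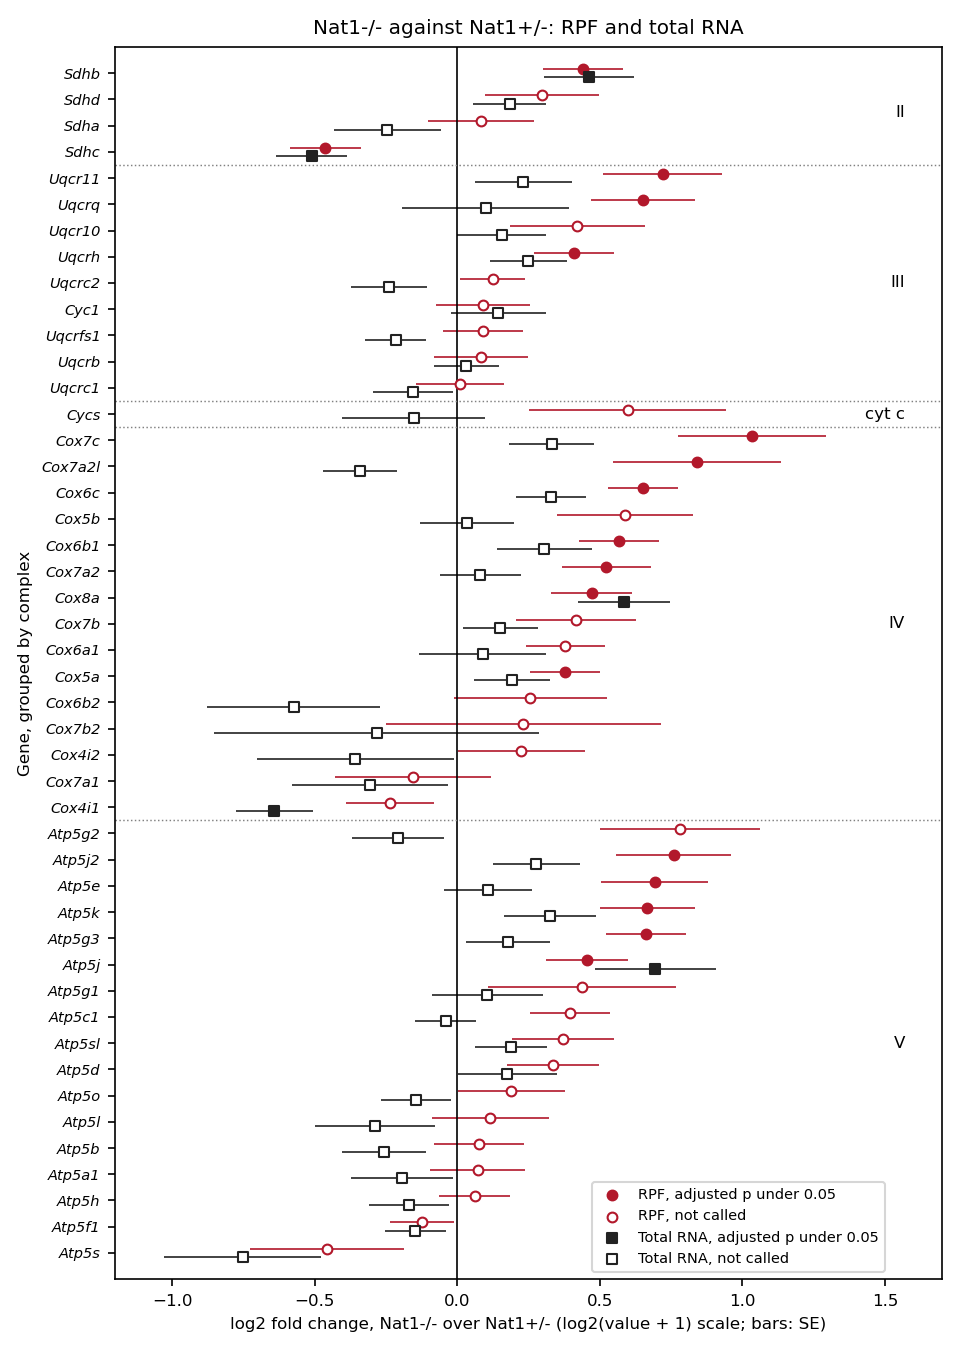
Log2 fold change of Nat1-/- over Nat1+/- with its SE for each member, grouped by complex, for RPF (circles) and total RNA (squares), filled where the adjusted p is under 0.05. RPF changes lie to the right of total RNA changes for 42 of 46 members, and 17 circles but 5 squares are filled.

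Fewer members passed the test in total RNA than in footprints between Nat1-/- and Nat1+/-. Total RNA of 3 members rose (Cox8a, Atp5j and Sdhb) and that of 2 fell (Cox4i1 and Sdhc), which is 6.52% and 4.35% of the members against 19.8% and 20.2% of all 13813 genes tested. The median log2 fold change was 0.06, beside 0.01 over all genes, and Nat1-/- values lay wholly above Nat1+/- values for 6 members and wholly below for 7 (25.6% and 24.6% of all genes). Without B2 there were 0 rises and 2 falls (12.1% and 13.9% of all genes), and without C3 there were 7 and 4 (22.6% and 22.6%). Without A7 there were 1 and 2 (15.4% and 17%), and without B4 0 and 3 (14.4% and 15%). The 3 members whose total RNA rose were 18.8% of the 16 whose footprints rose. Footprints were up and total RNA down in sign for 16 members, both were up for 25, both down for 5, and the reverse held for 0. As a share of all reads, the 46 members took 1.65 to 1.84% of footprints in Nat1-/- cultures, 1.49 to 1.60% in Nat1+/- cultures and 1.46 to 1.50% in WT cultures. They took 0.913 to 1.01% of total RNA reads in Nat1-/- cultures, 1.03 to 1.09% in Nat1+/- cultures and 0.805 to 0.978% in WT cultures.

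Footprints per total RNA were taken as translational efficiency (TE), the log2 ratio of the 2 values of a culture, and tested in all 16 libraries by an assay-by-genotype term. In that fit 0 of 46 members passed for Nat1-/- against Nat1+/-, beside 0.0309% of 12933 genes that rose and 0.549% that fell. At an unadjusted p under 0.05 there were 7, all higher in Nat1-/-, and the share of all genes under that level was not counted. The members' smallest unadjusted p-values were 0.00267 for Cox7a2l, 0.0121 for Atp5g2, 0.0163 for Atp5c1 and 0.0269 for Atp5g3. With a term for each culture, which uses that both libraries come from the same cells, 12 members rose and 0 fell, against 6.49% and 9.26% of all genes. The 12 were Sdha, Uqcr11, Uqcrc2, Cycs, Cox4i1, Cox5b, Cox6b2, Cox7a2l, Atp5c1, Atp5e, Atp5g3 and Atp5j2. DESeq2 on recovered reads called 1 member, beside 114 of 12933 genes that rose and 284 that fell. With edgeR 0 members were called, beside 6 and 78 genes. In sign, the TE change was positive for 42 of 46 members with a median of 0.32, beside 0.01 over all genes, and the median was 0.21 without B12. The Nat1-/- cultures lay wholly above the Nat1+/- cultures for 26 members and wholly below for 0, where 18.5% and 18.4% of all genes did so.

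Cox7a2l had log2 TE of -3.09, -4.07 and -4.24 in Nat1-/- cultures, -4.81, -5.08 and -5.05 in Nat1+/- cultures and -3.60 and -4.01 in WT cultures. Its change of 1.18 ± 0.33 was the largest of the members (adjusted p = 0.135, and 0.0105 with the culture term). The mean ratio of its normalised footprint value to its normalised total RNA value was 0.0528, on a scale that is relative because the assays were scaled separately, which placed the gene at percentile 0.19 of 12933 genes, whose median ratio was 0.772. At the other end, Uqcrq had a ratio of 5.30 and Atp5j of 4.43. Atp5g2 had log2 TE of 1.80, 0.76 and 0.16 in Nat1-/- cultures, -0.19, -0.12 and 0.05 in Nat1+/- cultures and 1.37 and 0.60 in WT cultures, with B12 and WTex1 far above the rest (0.99 ± 0.35, adjusted p = 0.264, or 0.0642 with the culture term). Atp5g3 had 1.38, 1.41 and 1.50 in Nat1-/- cultures, 1.00, 1.01 and 0.83 in Nat1+/- cultures and 1.38 and 1.29 in WT cultures, where the Nat1-/- cultures were close together and above all Nat1+/- cultures (0.48 ± 0.20, adjusted p = 0.375, or 0.0062). Atp5c1 had 0.65, 0.41 and 0.29 in Nat1-/- cultures, -0.02, 0.02 and 0.04 in Nat1+/- cultures and 0.51 and 0.27 in WT cultures (0.44 ± 0.16, adjusted p = 0.297, or 0.0217). The third c subunit gene, Atp5g1, had 1.02, 0.65 and 0.21 in Nat1-/- cultures, 0.16, 0.46 and 0.27 in Nat1+/- cultures and 1.20 and 0.51 in WT cultures, with overlap.

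The TE change was negative for 4 members, and none of these passed the test. They were Atp5j (-0.24 ± 0.27), Cox8a (-0.11 ± 0.22), Cyc1 (-0.05 ± 0.24) and Sdhb (-0.02 ± 0.21), with adjusted p between 0.875 and 0.994. Atp5j, Cox8a and Sdhb are the 3 members whose total RNA rose. Their log2 TE was 1.82, 2.00 and 2.31 in Nat1-/- cultures, 2.29, 2.28 and 2.28 in Nat1+/- cultures and 1.98 and 2.21 in WT cultures for Atp5j, 0.98, 0.68 and 1.30 in Nat1-/- cultures, 1.08, 1.12 and 1.10 in Nat1+/- cultures and 0.82 and 0.44 in WT cultures for Cox8a and 0.61, 0.48 and 0.56 in Nat1-/- cultures, 0.58, 0.66 and 0.46 in Nat1+/- cultures and 0.65 and 0.29 in WT cultures for Sdhb. Sdhb values of the Nat1-/- cultures lay within the Nat1+/- range. Cyc1 had footprints of 6330.2, 4674 and 4625 normalised reads in Nat1-/- cultures, 5315, 4131 and 5169 in Nat1+/- cultures and 4978 and 4397 in WT cultures and total RNA of 3275, 3298 and 2144 normalised reads in Nat1-/- cultures, 2645, 2482 and 2613 in Nat1+/- cultures and 2832 and 3104 in WT cultures, overlapping in both.

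The cultures of a genotype were not alike. Relative to the mean of 8 cultures, the members' median log2 footprint deviation for Nat1-/- was 0.41 (B12), 0.21 (B2) and 0.03 (C3). For Nat1+/- it was -0.15 (A7), -0.17 (B4) and -0.06 (C1), and for WT -0.05 (WTex1) and -0.14 (WTex2). Footprints were ordered B12 above B2 above C3 for 27 of 46 members (58.7%), beside 28.6% of all genes, 59.5% of 37 complex I genes and 90.5% of 84 cytosolic ribosomal protein genes. Total RNA medians for Nat1-/- were 0.08 (B12), 0.14 (B2) and close to 0 (C3), for Nat1+/- 0.04 (A7), 0.03 (B4) and 0.10 (C1), and for WT -0.27 (WTex1) and -0.09 (WTex2). TE medians for Nat1-/- were 0.32 (B12), 0.07 (B2) and 0.01 (C3), for Nat1+/- -0.17 (A7), -0.18 (B4) and -0.19 (C1), and for WT 0.17 (WTex1) and -0.07 (WTex2). B12 and WTex1, the cultures with the highest TE, also had the deepest total RNA libraries, 42.5 and 42.6 M reads, and WTex2, at 33.6 M, had a TE median below that of C3, at 14.2 M. TE was higher in WTex1 than in WTex2 for 42 of 46 members. The part of depth was not tested.

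**Figure D4:**
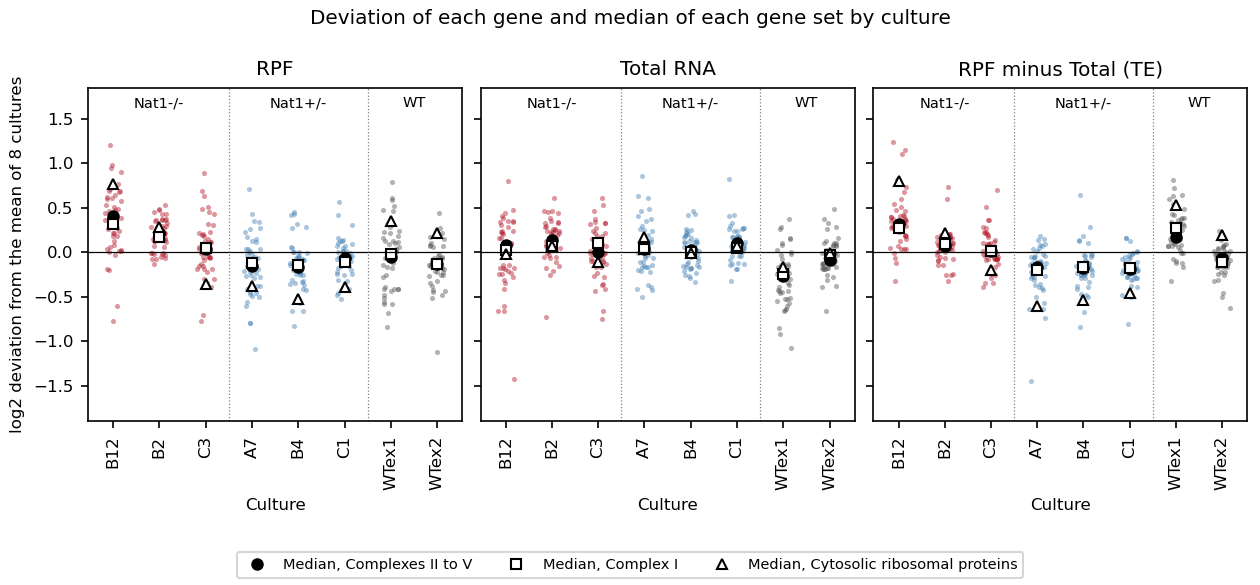
Log2 deviation from the mean of 8 cultures for each member (points, coloured by genotype) in RPF, total RNA and TE, with the median of the members, of 37 complex I genes and of 84 cytosolic ribosomal protein genes. The member medians in TE are -0.17 to -0.19 in the 3 Nat1+/- cultures and 0.32 in B12, and the ribosomal protein medians reach 0.80 in B12.

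Complex I, the remaining proton pump of the chain, and cytosolic ribosomal protein genes were counted in the same fit. Footprints of 12 of 37 complex I genes rose and 0 fell between Nat1-/- and Nat1+/- (32.4%), against 16 of 46 members (34.8%). Of all genes, 17.6% rose and 18.6% fell in footprints. The median log2 fold change was 0.27 in complex I and 0.38 in the members. Total RNA of 1 complex I gene rose (2.7%) and that of 2 fell (5.41%), beside 19.8% and 20.2% of all genes. Footprints of 35 of 84 ribosomal protein genes rose (41.7%) with a median of 0.66, and their median TE change was 0.81, beside 0.32 in the members and 0.29 in complex I. No test of these differences between gene sets was made.

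Comparing Nat1-/- with WT adds the difference between targeted clones and the untargeted line. Footprints of 10 of 46 members rose in Nat1-/- cultures (21.7%) and 0 fell, beside 16.5% and 18.3% of 13110 genes. The smallest p-values were those of Cox6c (0.92 ± 0.14, n = 3 and 2; limma adjusted p = 0.000987), Cox8a (1.04 ± 0.16, adjusted p = 0.00109) and Sdhb (0.79 ± 0.16, adjusted p = 0.0041), which held without each culture in turn. For all 3, each Nat1-/- culture was above both WT cultures. The others were Cox5a, Cox6b2, Cox6a1, Uqcrb, Atp5g3, Cox4i2 and Cox6b1, at 0.46 for Cox6b1 to 1.43 for Cox6b2. By complex, 7 of 15 members of complex IV rose, 1 of 4 of complex II, 1 of 9 of complex III and 1 of 17 of complex V. Without WTex1 the rises numbered 4 (5.65% of all genes rose), without WTex2 5 (8.84%), and with equal library sums 6 (11.9%).

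Total RNA of 8 members rose in Nat1-/- over WT (17.4%) and 0 fell, beside 16.2% and 18.9% of 13813 genes. The smallest p-values were those of Cox6c (0.85 ± 0.14, adjusted p = 0.00112), Cox7c (0.69 ± 0.17, adjusted p = 0.00986) and Sdhb (0.71 ± 0.18, adjusted p = 0.0108). Cox8a, Cox7b, Cox5a, Sdhc and Atp5sl rose as well, at 0.68, 0.53, 0.50, 0.44 and 0.42. Cox6c, Cox8a, Sdhb and Cox5a rose in both assays, which is 40% of the footprint calls and 50% of the total RNA calls. Without WTex1 the total RNA count was 1, Cox6c (7.31% of all genes rose), without B2 it was 3 (11.1%) and without B12 it was 13 (17.5%). In TE 0 members passed for Nat1-/- against WT with limma, DESeq2 or edgeR, and 0 had an unadjusted p under 0.05 in limma. Of 12933 genes, 0% rose and 0.00773% fell in limma at the adjusted threshold. With DESeq2 6 rose and 28 fell, and with edgeR 0 and 1. The share of all genes under the unadjusted level was not counted. With the culture term 0 members passed too, where 0.232% of genes rose and 0.99% fell, and the median change was 0.07.

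Between Nat1+/- and WT, 3 members rose in footprints and 0 fell, 6.52% beside 5.35% of all genes that rose and 5.13% that fell. They were Sdhc (0.85 ± 0.14, n = 3 and 2; limma adjusted p = 0.0148), Cox6b2 (1.17 ± 0.30, adjusted p = 0.0394) and Cox8a (0.57 ± 0.16, adjusted p = 0.0492). Total RNA of 3 members rose, beside 4.6% of all genes that rose and 5.41% that fell: Sdhc (0.95 ± 0.14, adjusted p = 0.0103), Cox6b2 (1.45 ± 0.34, adjusted p = 0.03) and Cox6c (0.53 ± 0.14, adjusted p = 0.0396). These 6 calls were not stable: leaving out single cultures left 0 to 2 footprint calls and 0 to 2 total RNA calls, with 0 of each without WTex1 (0% of all genes rose in either assay) and 0 of each without WTex2 (0.114% in footprints and 0.0434% in total RNA), the other WT culture then standing alone. In TE 0 members passed with limma, DESeq2 or edgeR. Of 12933 genes, limma called 0% in either direction, edgeR 0, and DESeq2 4 higher and 6 lower. In limma 4 members had an unadjusted p under 0.05, all lower in Nat1+/-. The share of all genes under that level was not counted. With the culture term 0 members passed, beside 0.696% of genes that rose and 0.433% that fell. In sign, 38 of 46 changes were negative, with a median of -0.24 beside 0.02 over all genes.

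The 3 comparisons share cultures, so their values are given side by side for the genes named most. The log2 fold change of Sdhc footprints was -0.46 in Nat1-/- over Nat1+/-, 0.39 in Nat1-/- over WT and 0.85 in Nat1+/- over WT. That of Cox6c was 0.65, 0.92 and 0.27 in the same order, that of Cox7c 1.03, 0.60 and -0.43, and that of Atp5g3 0.66, 0.50 and -0.17. The Nat1+/- mean was the lowest of the 3 genotypes in TE for 38 of 46 members (82.6%), beside 37.4% of all genes and 96.4% of cytosolic ribosomal protein genes.

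Other genes of the same machinery were counted from lists. Of 4 nuclear subunits whose symbols lie outside the prefixes used, 0 passed in total RNA between Nat1-/- and Nat1+/-. There 19.8% of all genes rose and 20.2% fell. In footprints 3 of the 4 rose, beside 17.6% of all genes. They were Usmg5, a small ATP synthase subunit (1.09 ± 0.24, adjusted p = 0.00722), Ndufa4, a complex IV subunit once assigned to complex I (0.56 ± 0.18, adjusted p = 0.0351), and 2010107E04Rik, another small protein of ATP synthase (0.62 ± 0.21, adjusted p = 0.0443). Usmg5 footprints were 3314, 3217 and 1758 normalised reads in Nat1-/- cultures, 1001, 1427 and 1357 in Nat1+/- cultures and 2567 and 2501 in WT cultures, with each Nat1-/- culture above each Nat1+/- culture and WT between B2 and C3. Usmg5 total RNA was 1107, 975 and 935 normalised reads in Nat1-/- cultures, 1042, 969 and 1106 in Nat1+/- cultures and 892 and 983 in WT cultures. Cyct, the fourth, had 50.7, 102 and 125 normalised footprint reads in Nat1-/- cultures and 42.3, 322 and 79.8 in Nat1+/- cultures. It overlapped between these genotypes and did not pass (log2 fold change -0.25).

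Of 37 assembly factors tested, footprints of 6 rose (16.2%) and those of 1 fell (2.7%), where 17.6% of all genes rose and 18.6% fell, so the share that rose was near that of all genes. Uqcc3 and Lyrm7, which act in complex III assembly, went opposite ways, with 1.08 ± 0.18 and -1.51 ± 0.29 (adjusted p = 0.00218 and 0.00375). Lyrm7, the chaperone of the Rieske protein, had 21.6, 24.9 and 23.9 normalised reads in Nat1-/- cultures, 71.6, 88.1 and 51.4 in Nat1+/- cultures and 44.3 and 54.2 in WT cultures, so that all Nat1-/- cultures were below all others. Uqcc3 had 988, 814 and 611 normalised reads in Nat1-/- cultures, 393, 356 and 366 in Nat1+/- cultures and 628 and 537 in WT cultures. The other risers were Cox20 (1.00 ± 0.26), Pet100 (0.72 ± 0.20), Atpaf2 (0.56 ± 0.16), Cox14 (0.45 ± 0.13) and Cox15 (0.44 ± 0.13), which serve the assembly of complexes IV and V. In total RNA, 4 assembly factors rose (10.8%) and 3 fell (8.11%), below the 19.8% and 20.2% of all genes, among them Uqcc3 (0.57 ± 0.15) and Lyrm7 (-1.53 ± 0.32). Lyrm7, Uqcc3 and the factors named here were taken from the list because they passed the test.

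The mitochondrially encoded partners were covered unevenly, with 3 of 6 genes above the minimum in footprints and 5 in total RNA. Total RNA over the 8 cultures ran from 28330 to 80480 normalised reads for mt-Co1 and from 0 to 14.7 for mt-Co2. The reason for this unevenness was not tested. Of the genes above the minimum, 0 passed the test. In total RNA of Nat1-/- over Nat1+/-, all 5 had a positive log2 fold change, with a median of 0.94, and in footprints all 3 did, with a median of 0.27. They ran from mt-Co1, the catalytic subunit of complex IV (0.01 ± 0.24 in total RNA), to mt-Atp6, the proton channel subunit of complex V (1.97 ± 0.93, adjusted p = 0.117). Total RNA of mt-Cytb, the cytochrome b of complex III, was 16612, 8803 and 2485 normalised reads in Nat1-/- cultures, 4010.2, 3453 and 3693 in Nat1+/- cultures and 12624 and 7031 in WT cultures (0.94 ± 0.54, adjusted p = 0.186). B12 and WTex1 were the highest, C3 was the lowest, and the genotypes overlapped. Of 8 tested regulators of mitochondrial genes, 1 rose in footprints and 3 in total RNA, beside 17.6% and 19.8% of all genes. Nrf1, the factor whose motif is shown above, rose in footprints (0.39 ± 0.13, adjusted p = 0.0393) and total RNA (0.40 ± 0.12, adjusted p = 0.0198). Yy1 and Esrra rose in total RNA (0.67 ± 0.13 and 0.59 ± 0.18) and did not pass in footprints (0.08 ± 0.12 and -0.15 ± 0.20). Gabpa, a subunit of the factor of the second motif, did not pass in either assay (0.21 ± 0.14 and 0.13 ± 0.12).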

How the data were processed

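Ribosome-protected fragments and total RNA were measured in 8 cultures (3 Nat1-/-, 3 Nat1+/-, 2 WT). Per the labels' protocols, the libraries came from an Illumina ribosome profiling kit. The submitters' processing notes name HTSeq 0.6.1 and DESeq2 (counting and scaling tools), TopHat2 2.1.0 and Bowtie2 2.2.8 (aligners), cutadapt 1.9.1 and bcl2fastq 2.17, with the builds mm10 and GRCm38.p4. The sources used here give no strand setting, handling of multiple matches or footprint length selection. The deposited values are a normalised read signal per gene. They equal whole reads divided by 1 factor per library, set separately for each assay, and 100% of values came out whole within 0.001 after rescaling, so RPF and total RNA values share no absolute scale.

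Values were tested as log2(value + 1) with limma 3.58.1 (R 4.3.3) over genes with a mean of at least 10 in the assay's 8 libraries, with 3 genotype means per fit. TE was the interaction of assay and genotype over 16 libraries. P-values were adjusted by Benjamini-Hochberg over all genes, and calls used a threshold of 0.05. Fold changes on this scale understate those of low genes. The 2 libraries of a culture come from the same cells, and their deviations from the genotype means correlated at 0.384 to 0.821, so TE was refitted with a term per culture. The members, gene lists and tests were chosen with earlier results of these data known. Every member may be named. Full values were given for the Sdh genes, the paralogue sets and the smallest p-values in each comparison, and other genes come from the lists. Alternatives were other pseudocounts, filters, scalings, edgeR 4.0.16 and DESeq2 1.42.0 on recovered reads, fits of only the genotypes compared, a replicate term and each culture left out. The tests were run on simulated data with known changes, in which all libraries were drawn independently with 1 common spread per assay. That check cannot show how the tests behave where the 2 libraries of a culture correlate, as they did here. Clones and WT cultures were treated as replicates; the WT cultures are of 1 line, so their spread may be technical.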

Additional observations from a re-analysis of the deposited data

How the results depend on the processing

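Most calls are close to the threshold and each group has 2 or 3 cultures. Counts of called members under other settings were 10 with equal library sums for footprints of Nat1-/- against Nat1+/-, and 6 for Nat1-/- against WT. Of 13125 genes, 1758 rose and 2748 fell in the first of these fits and 1558 and 2743 in the second. The main fits had 2303 and 2434, and 2167 and 2400, of 13110 genes. For footprints of Nat1+/- against WT, called members numbered 6 with DESeq2, 8 with only the genotypes compared and 1 with the replicate block. Of 13110 genes, 1284 rose and 1235 fell with DESeq2, 1333 and 1305 with only these genotypes and 90 and 72 with the block. In the main fit 701 rose and 673 fell. For total RNA of Nat1-/- against Nat1+/-, 8 members were called with DESeq2, beside 2896 of 13813 genes that rose and 2966 that fell. For Nat1-/- against WT, 5 were called with equal sums (of 13825 genes, 1632 rose and 3138 fell). With the replicate block 5 were called as well (1822 and 2257 of 13813 genes). For Nat1+/- against WT, 6 were called with DESeq2 (1222 and 1337 of all genes) and 5 with only these genotypes (1313 and 1455). With the replicate block it was 1 member (102 and 88 of all genes). The main fits had 2730 and 2789, 2231 and 2608, and 636 and 747 genes in the same order of comparisons. For TE of Nat1-/- against Nat1+/-, called members numbered 1 with DESeq2 and 12 with the replicate block, there a term per culture. Of 12933 genes, 114 rose and 284 fell with DESeq2 and 839 and 1198 with the block, beside 4 and 71 in the main fit. For RPF and total RNA that block is the replicate number, whose same-numbered cultures correlated at -0.19 to 0.34, so they share only a number. Median log2 changes moved to 0.13 with TMM scaling (total RNA, Nat1-/- against Nat1+/-), and with equal sums to 0.0884 (total RNA, Nat1-/- against WT) and 0.15 (total RNA, Nat1+/- against WT). Equal sums shifted the median of all genes by -0.11 (footprints) and -0.12 (total RNA) for Nat1-/- against WT, and the share of calls that were higher was then 36.2% and 34.2%, against 47.4% and 46.1% in the main scaling. For total RNA of Nat1+/- against WT that share was 28.1% with equal sums and 35.5% with TMM, against 46.0%.

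With single cultures left out, called members for Nat1-/- against Nat1+/- numbered 3 to 24 in footprints, 2 to 11 in total RNA and 0 to 1 in TE. In the same fits, 1187 to 2641 of 13110 genes rose and 1616 to 2804 fell in footprints. In total RNA 1665 to 3116 of 13813 genes rose and 1914 to 3117 fell. In TE 0 to 120 of 12933 genes rose and 6 to 256 fell. Median log2 changes of the members were 0.26 to 0.44 in footprints, -0.0043 to 0.10 in total RNA and 0.21 to 0.37 in TE. For Nat1-/- against WT they numbered 4 to 13, 1 to 13 and 0 to 0, with medians of 0.17 to 0.37, 0.12 to 0.34 and -0.06 to 0.22. For Nat1+/- against WT they were -0.11 to 0.0481, 0.15 to 0.32 and -0.42 to -0.0826. A group left with 1 culture was assumed to vary like the others. The cause of these shifts was not tested.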
